A study of Mus musculus with 24 samples.

Results

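Replication-dependent histone mRNAs encode the linker histone H1 and the core histones H2A, H2B, H3 and H4 that package newly copied DNA. The genes were taken by symbol, as every gene whose mouse symbol starts with Hist1h, Hist2h, Hist3h or Hist4h. There were 61 of them among the 13534 genes of the whole-cell table, namely 5 of H1, 16 of H2A, 16 of H2B, 11 of H3 and 13 of H4. The fraction table held 47 of them among 11568 genes. The choice used no measured value.

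The RNA came from NIH3T3 cells, a line of mouse fibroblasts, that were transfected at 10 nM with 1 of 2 mimics, either miR-29b or scrambled. Both mimics carried 3-cyanovinylcarbazole, a light-activated crosslinking nucleoside, so that RNA joined to the mimic could be recovered by pulldown. All groups shared the cell line, the transfection, added medium at 24 h and a further 8 h before harvest. The 16 whole-cell libraries formed 4 groups of 4, an input and a pulldown for each mimic. The 8 fraction libraries held 1 cytoplasmic and 1 nuclear library for each of the same 4 conditions. Libraries were primed with a mix of random hexamers and oligo-dT, from 5 ng of RNA except 6 ng in replicate 4 of the miR-29b input. The labels name no separate cultures behind the libraries of a group. The p-values therefore measure only how far these samples spread, and that spread may be technical.

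Most mRNAs end in a poly(A) tail, but replication-dependent histone mRNAs end in a short stem-loop bound by the protein SLBP. They are made in S phase and degraded when DNA synthesis stops, and in mouse most of their genes lie in a large cluster on chromosome 13 and a smaller one on chromosome 3. Some of them, Hist1h1c and Hist1h2bc among them, are known to give polyadenylated transcripts as well. MiR-29b pairs with its targets mainly through its seed, bases 2 to 8 from the 5′ end. The mature mouse sequence from RefSeq (GRCm38.p6, chr6:31063025-31063047, minus strand; a second copy on chromosome 1 gives the same one) is shown with the seed in capitals, since the pulldowns were made with a mimic of it; the letters of the mimics themselves were not used here.
miR-29b-3p: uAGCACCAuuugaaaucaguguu

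RefSeq's GRCm38.p6 table matched 60 of the 61 genes, with 50 on chromosome 13, 8 on chromosome 3, 1 on chromosome 11 and 1 on chromosome 6. Of these, 53 spanned less than 1000 bases. The 7 longer genes were Hist1h2al, Hist1h2bc, Hist1h2be, Hist1h2bp, Hist1h2bq, Hist1h2br and Hist2h2be. The genes share upstream motifs by class. Head-to-head pairs were searched among the 54 genes with a listed promoter. Genes without one, such as Hist1h2bc and Hist2h2be, could not be paired. In that search 7 H2A genes stand head to head with an H2B gene, with 163 to 248 bases between the 2 starts. The closest of these pairs is Hist1h2ak and Hist1h2bn. The whole stretch between them (chr13:21753913-21754075, plus strand) is shown because the members of this pair gave different ratios in the pulldowns. Upstream bases of 4 genes that the results turn on follow: Hist1h4d, the most abundant H4 mRNA, Hist1h1c, the most abundant H1 mRNA, Hist1h1d, an H1 gene with the other order of pulldowns, and Hist2h3b, an H3 gene. Each is 150 bases long, on the plus strand and ends at the base before the annotated start, at chr13:23581418-23581567, chr13:23738657-23738806, chr13:23554882-23555031 and chr3:96268504-96268653. Capitals mark the TATA box, CCAAT box, octamer and GC box letters, spelled out further on, on either strand.
Hist1h2ak and Hist1h2bn: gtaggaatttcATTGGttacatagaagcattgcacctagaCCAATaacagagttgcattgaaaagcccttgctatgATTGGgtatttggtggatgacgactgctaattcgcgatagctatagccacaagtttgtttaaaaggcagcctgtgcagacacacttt
Hist1h4d: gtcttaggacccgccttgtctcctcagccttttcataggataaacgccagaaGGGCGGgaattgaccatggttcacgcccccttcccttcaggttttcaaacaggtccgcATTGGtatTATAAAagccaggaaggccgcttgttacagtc
Hist1h1c: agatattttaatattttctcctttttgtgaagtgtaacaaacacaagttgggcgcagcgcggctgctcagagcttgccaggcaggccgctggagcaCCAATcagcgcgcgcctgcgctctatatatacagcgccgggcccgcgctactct
Hist1h1d: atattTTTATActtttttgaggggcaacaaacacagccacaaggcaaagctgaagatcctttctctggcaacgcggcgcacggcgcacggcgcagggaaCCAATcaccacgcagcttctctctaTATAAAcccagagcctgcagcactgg
Hist2h3b: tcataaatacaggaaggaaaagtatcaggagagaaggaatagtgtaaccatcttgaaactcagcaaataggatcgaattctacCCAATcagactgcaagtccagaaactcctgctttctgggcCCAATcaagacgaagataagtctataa

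Promoters of 54 of the 61 genes were listed, and the 250 bases upstream of each start were searched on both strands. CCAAT, the CCAAT box, occurred in 44 of 54 (81.5%), against 37.5% of the 27025 genes with a promoter entry. All 14 H2A and all 14 H2B genes held it, but 3 of 12 H4 genes. TATAAA, the TATA box, occurred in 26 of 54 (48.1%), against 14.3% of all genes. ATTTGCAT, the octamer known to bind Oct-1, occurred in 11 of 54 (20.4%), against 1.81% of all genes, in 5 H2A and 6 H2B genes. GGGCGG, the GC box, occurred in 17 of 54 (31.5%) against 35.4%, with 9 of 12 H4 genes and none of 14 H2B genes. These are matches of letters and not shown to be sites. In the 7 head-to-head pairs, with 163 to 248 bases between the starts, the searched stretches overlap and reach into the partner gene. A match there can be counted for both genes. The TATA box counted for Hist1h2bn and the GC box counted for Hist1h2ak lie outside the stretch printed above.

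The counts listed per library ranged from 7409157 to 55153996 in whole cells and from 5320421 to 20142591 in the fractions. Fibroblast markers fixed for the check were measured for 11 of 12 genes, with sums of 4478 to 18012 CPM (counts scaled to library size by TMM). Of the markers of other cell types, 1 of 6 epithelial genes was measured, at 0 to 3.27 CPM, and no endothelial gene was listed. The 2 leukocyte genes summed to 1.67 to 35.4 CPM, the 2 muscle genes to 0.728 to 5.59 CPM and the 2 neural genes to 9.27 to 21.4 CPM. No 2 libraries of a group agreed within sampling noise, since the chi-square per gene was at least 7.43 for every pair over all genes. Where replicates 1 and 2 differed over 2-fold, over all genes, replicate 3 mostly lay between them. It did in 194 of 252 genes in the miR-29b input and 462 of 556 in the scrambled one. In the pulldowns it did in 1198 of 1250 (miR-29b) and 2040 of 2483 (scrambled). For histone genes these were 7 of 14, 7 of 17, 13 of 22 and 17 of 42. Over all genes, in the same order of groups, replicate 4 lay between replicates 1 and 2 in 103, 317, 553 and 2111 genes. In the scrambled pulldown that was more often than replicate 3, so the pattern there does not single out replicate 3. Whether replicate 3 is independent of replicates 1 and 2 was not tested, and p-values that use all 3 may be too small. The headers of the authors' deposited table call 1 set of replicates lysed and the other intact. Their mean score for lysed replicates equalled the mean over replicates 1 to 3 in 13534 of 13534 genes, which leaves replicate 4, with 1 library a group, for the intact set, although the labels do not say so. Replicate 4 stood apart in the inputs and in the miR-29b pulldown, with a chi-square per gene of 219.92 to 404.82 against its group, but not in the scrambled pulldown, where it was 7.43 and 34.2 against replicates 3 and 2. There replicate 1 stood apart, with 113.8 to 185.0 against the others. Results that rest on these libraries are therefore given for all 4 replicates, for replicates 1 to 3 and for replicate 4. Many histone genes have nearly the same coding sequence, and how reads shared between copies were counted is not given in the sources used here, so values of single genes are uncertain.

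Histone mRNAs were a small share of the counts, 0.0275% to 0.158% in whole cells. Their summed level in the miR-29b input was 293, 383, 400.1 and 1137 CPM in replicates 1 to 4. In the scrambled input it was 358, 468, 478 and 1042 CPM. Both inputs thus held 3 libraries at a like level and 1, replicate 4, that stood well above them. In the miR-29b pulldown the sums were 283, 481, 436 and 1376 CPM, which repeats the pattern of its input. In the scrambled pulldown they were 569.9, 1276, 1304 and 1395 CPM, so that replicates 2, 3 and 4 lay together and replicate 1 was low. In bulk RNA, fewer cells in S phase and less histone mRNA per cell cannot be told apart.

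**Figure D1:**
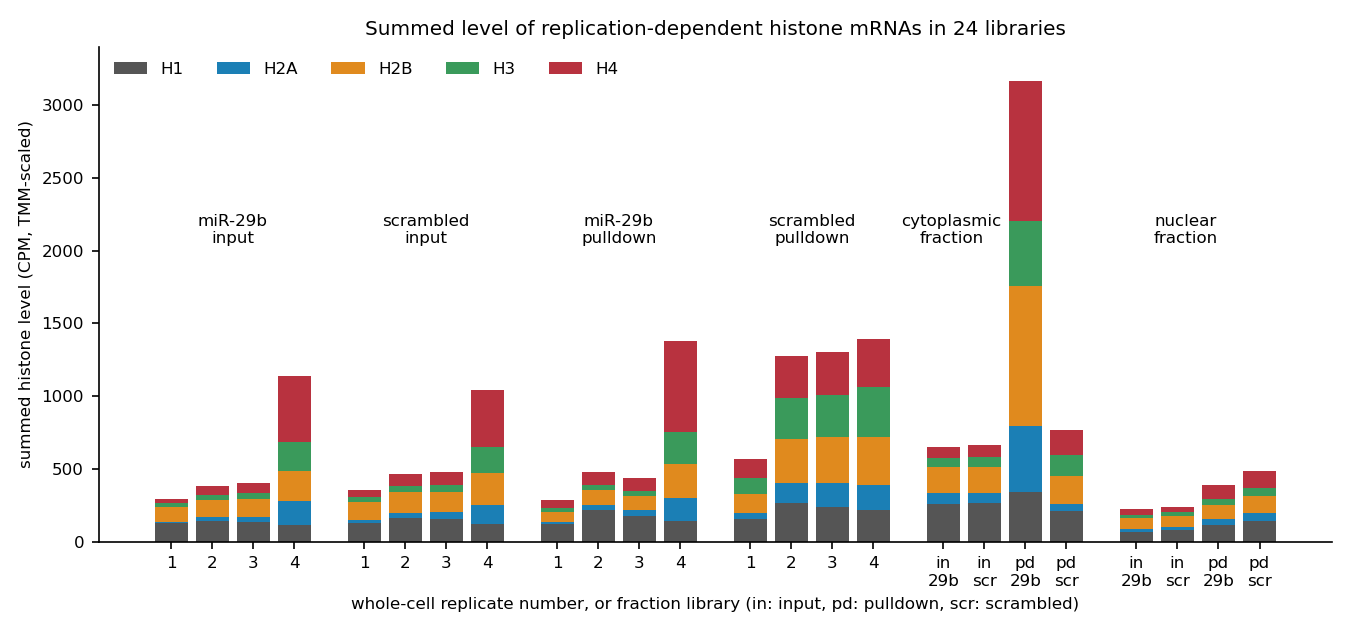
Summed level of the histone mRNAs (CPM scaled by TMM, linear axis from 0) in each of the 24 libraries, with bars stacked by histone class (61 genes in whole cells, 47 in fractions). Replicate 4 is high in both whole-cell inputs and in the miR-29b pulldown, and the cytoplasmic miR-29b pulldown reaches 3164 CPM against 768 CPM in the cytoplasmic scrambled pulldown.

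The level was spread unevenly over the genes. The 5 highest, Hist1h4d, Hist1h1c, Hist1h2bc, Hist2h2bb and Hist1h1e, made up 47.2% of the mean sum, while 14 genes had a mean under 1 CPM and the median gene had 5.50 CPM. Per length, over genes spanning less than 1000 bases, Hist1h4d had the highest mean level with 275 CPM per kb. Hist1h1c followed with 129 CPM per kb, Hist2h2bb with 79.5 and Hist1h2ak with 68.6 CPM per kb. In the classes, the sum for H4 was 31.0 to 86.5 CPM in input replicates 1 to 3 and 389 and 452 CPM in replicate 4. The sum for H1 was 125 to 160 CPM in input replicates 1 to 3 and 115 and 124 CPM in replicate 4.

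Recovery with the scrambled mimic gives the background of the pulldown. Against its input, 16 of 61 histone mRNAs rose and none fell (edgeR quasi-likelihood test, adjusted p under 0.05), where 18.5% of all genes tested rose and 17.4% fell. The count of 16 reads near that background, while the median log2 change of the 61 was 1.35 against 0.03 for all genes, and 59 of them lay above 0. In 12 of 61 all scrambled pulldown libraries lay above all scrambled inputs, against 21.3% of all genes, and in none did they all lie below, against 19.6%. By class, 3 of 5 H1, 3 of 16 H2A, 7 of 16 H2B, 2 of 11 H3 and 1 of 13 H4 mRNAs rose.

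Hist1h2ac (ENSMUSG00000069270; chr13:23683473-23683959, GRCm38), an H2A gene, had 7.50, 6.45, 6.70 and 5.48 CPM in the scrambled pulldown. Its scrambled input had 2.29, 3.24, 3.20 and 3.33 CPM, and the groups did not overlap. The change was 1.11 ± 0.18 on the log2 scale (SE, n = 4 per group, edgeR adjusted p = 0.000268). Hist2h3b (ENSMUSG00000074403; chr3:96268654-96269155, GRCm38), one of the genes of H3, had 15.3, 41.2, 46.1 and 53.3 CPM in the scrambled pulldown and 2.37, 2.78, 4.93 and 10.3 CPM in the input. These groups did not overlap either, and the change was 2.93 ± 0.69 (edgeR adjusted p = 0.00372). Hist1h1a, an H1 gene of low level, had 1.23, 2.34, 2.00 and 1.73 CPM in the pulldown and 0.267, 0.137, 0.129 and 0.185 CPM in the input (log2 change 3.34 ± 0.91, edgeR adjusted p = 0.00930). The replicates of Hist1h1a did not overlap, at levels that rest on few counts.

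The H2B genes Hist1h2bn and Hist1h2bb gave large changes with 1 low library. Hist1h2bn had 9.55, 50.4, 48.3 and 46.3 CPM in the scrambled pulldown and 2.90, 4.56, 3.80 and 13.0 CPM in the input (log2 change 2.67 ± 0.71, edgeR adjusted p = 0.00796). Hist1h2bb had 5.45, 32.9, 32.4 and 36.6 CPM and 1.37, 3.47, 2.89 and 7.53 CPM (log2 change 2.82 ± 0.83, edgeR adjusted p = 0.0150). In both genes replicate 1 of the scrambled pulldown lay below replicate 4 of the input, so the groups overlapped. Hist1h2be, also H2B, rose by 1.35 ± 0.39, and Hist1h1d, an H1 gene, by 1.80 ± 0.52 in log2 (edgeR adjusted p = 0.0132 and 0.0140). The other 9 that rose were Hist1h1b, Hist1h2ad, Hist1h2an, Hist1h2bl, Hist1h2bm, Hist1h2bp, Hist1h4j, Hist2h2be and Hist2h3c2.

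Replicate 4 of the inputs weighed on this count. With replicates 1 to 3 alone, 47 of 55 histone mRNAs tested rose and 1 fell, where 27.7% of all genes rose and 26.4% fell in that fit, with a median of 2.14. With replicates 1, 2 and 4, Hist1h2ac alone rose (edgeR adjusted p = 0.0129), where 8.49% of all genes did. In replicate 4 by itself, 1 library each, 23 of 61 lay over 2-fold above the input and none lay over 2-fold below it, with a median of 0.70 against 0.12 for all genes and 19.5% of all genes over 2-fold above. Without replicate 1 of the scrambled input 5 rose, where 13.7% of all genes did, and without its replicate 4 22 rose, where 17.9% did. With the replicate number as a block 53 of 61 rose and none fell, where 23.8% of all genes rose and 21.0% fell. The labels do not state such a pairing.

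The abundant genes Hist1h1c and Hist1h2bc had the other order of replicate 4. Hist1h1c (ENSMUSG00000036181; chr13:23738807-23739531, GRCm38) had 103, 111, 112 and 35.7 CPM in the scrambled input and 65.0, 89.4, 82.4 and 76.1 CPM in its pulldown. Replicate 4 was the lowest input library for this gene, where it was the highest for most others. Hist1h2bc, an H2B gene whose RefSeq span is 8282 bases, had 78.9, 96.4, 92.2 and 44.5 CPM in the input and 43.5, 61.6, 63.6 and 67.6 CPM in the pulldown. Neither passed with 4 replicates. With replicates 1 to 3, Hist1h2bc was the histone mRNA that fell, by 0.65 in log2 (edgeR adjusted p = 0.0199).

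With the miR-29b mimic, few histone mRNAs differed from the input by the test. Of 61 genes 1 rose and none fell, where 28.4% of all genes rose and 23.2% fell (edgeR, adjusted p under 0.05). The median log2 change was 0.17 against −0.03 for all genes. In none did the groups separate, where they did upward in 24.3% and downward in 18.0% of all genes. The gene that rose was Hist3h2a (ENSMUSG00000078851; chr11:58954685-58955192, GRCm38), an H2A gene outside the large clusters, by 0.81 ± 0.31 (edgeR adjusted p = 0.0386). Its levels were 3.56, 2.51, 3.83 and 1.77 CPM in the pulldown and 2.03, 1.91, 1.34 and 1.40 CPM in the input, which overlap. Its call ended with upper-quartile scaling (edgeR adjusted p = 0.152), then with replicates 1, 2 and 4 (edgeR adjusted p = 0.300) and without any of 4 single libraries, namely replicates 3 and 4 of the input and replicates 1 and 3 of the pulldown (edgeR adjusted p up to 0.125).

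Levels of the most abundant genes show the spread. Hist1h4d (ENSMUSG00000061482; chr13:23581568-23581969, GRCm38) had 32.2, 54.7, 53.1 and 429 CPM in the miR-29b pulldown and 14.1, 31.1, 31.5 and 294 CPM in its input. Replicate 4 was the high library on both sides. Hist2h3c2, the most abundant H3 mRNA, had 7.93, 12.9, 10.2 and 54.1 CPM against 9.03, 10.05, 10.8 and 53.3 CPM. Hist1h2ak, the most abundant H2A mRNA, had 3.37, 14.4, 16.4 and 83.0 CPM against 1.70, 9.71, 12.7 and 94.4 CPM. With replicates 1 to 3, 4 of 55 rose and 1, Hist1h2bc, had a log2 change of −0.56 (edgeR adjusted p = 0.0320) and fell, where 34.1% of all genes rose and 31.0% fell. With the replicate number as a block 1 rose and 2 fell, where 31.1% and 28.3% of all genes did. Without replicate 4 of the input 5 rose, where 30.2% of all genes did, and the median was 1.37. Without replicate 4 of the pulldown the median was −0.87 and 1 rose, where 28.3% of all genes did.

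**Figure D2:**
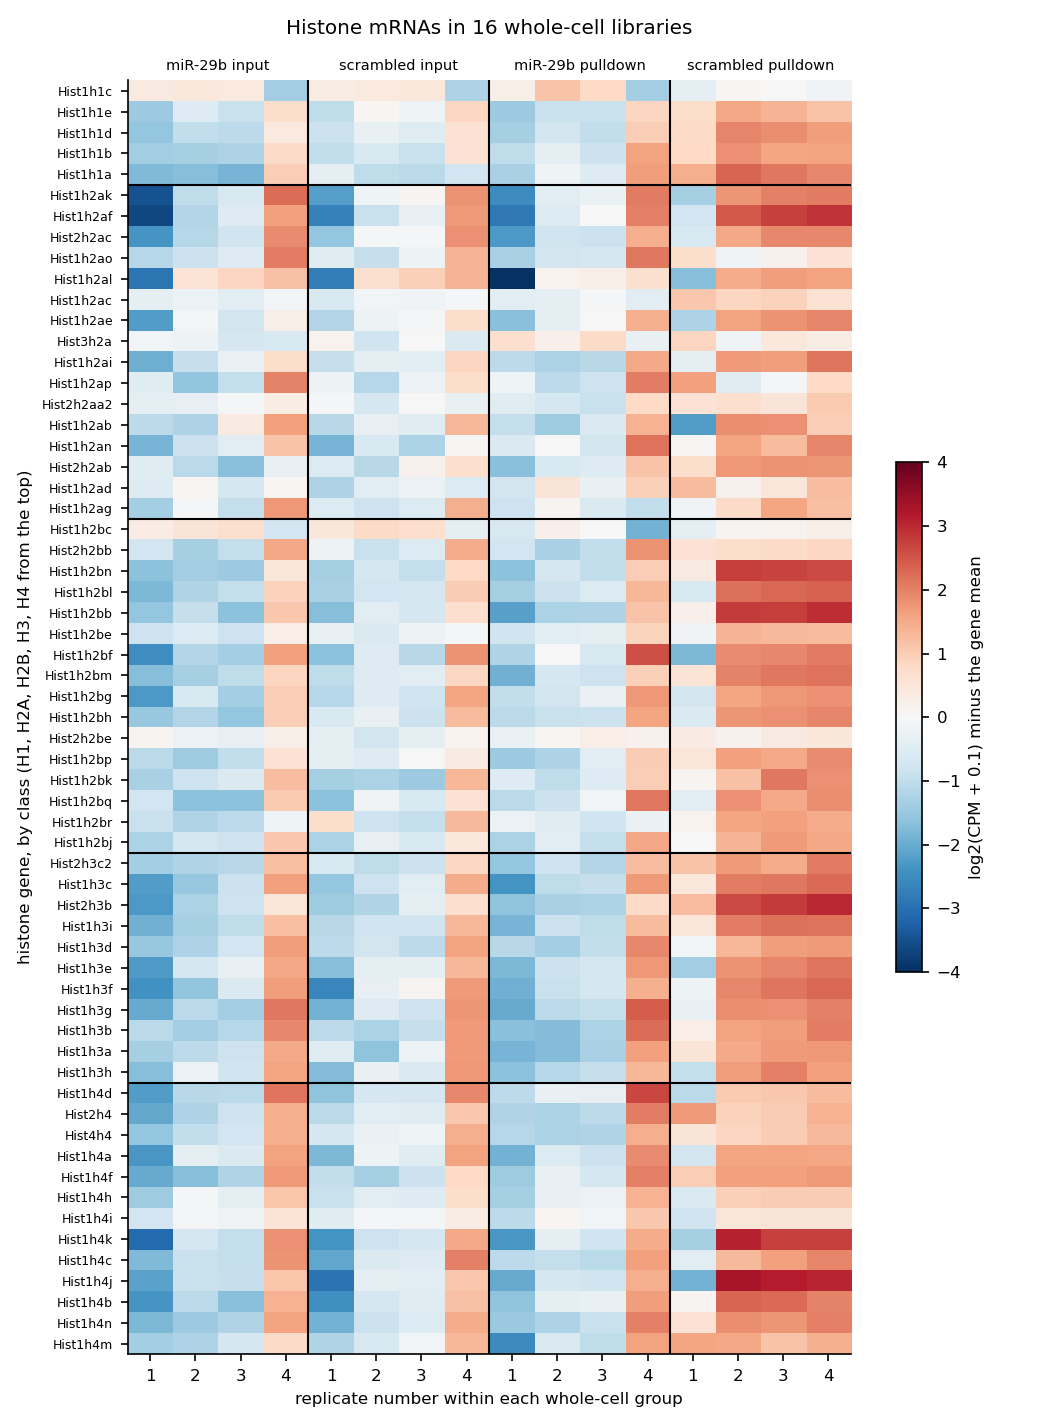
Level of each of the 61 histone mRNAs in the 16 whole-cell libraries, as log2(CPM + 0.1) minus the mean of that gene over the 16 libraries, with genes grouped by class and ordered by mean level. Replicate 4 of both inputs and of the miR-29b pulldown resembles the scrambled pulldown, whereas Hist1h1c and Hist1h2bc are low in it.

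Between the pulldowns, histone mRNAs were lower with miR-29b than with the scrambled mimic. None of 61 rose and 13 fell, where 24.5% of all genes rose and 20.9% fell (edgeR, adjusted p under 0.05). The median log2 difference was −1.31 against −0.10 for all genes, and 4 of 61 genes had a value above 0. In 3, Hist1h2ac, Hist1h2br and Hist2h3b, all miR-29b pulldown libraries lay below all scrambled ones, against 21.1% of all genes, and in none above, against 22.8%. The count of 13 reads near the background share in this fit. With the replicate number as a block 50 of 61 fell and none rose, where 28.3% of all genes fell and 26.4% rose. Whether the numbers pair the pulldowns could not be established.

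Hist1h2ac had 2.52, 2.69, 3.35 and 2.55 CPM in the miR-29b pulldown, below the 5.48 CPM of the lowest scrambled library, and fell by 1.22 ± 0.18 (edgeR adjusted p = 5.22e-05). Hist2h3b had 2.04, 2.58, 2.64 and 11.2 CPM, also below the lowest scrambled library at 15.3 CPM. It fell by 3.08 ± 0.69 in log2 (edgeR adjusted p = 0.00181). Hist1h2bn had 2.28, 4.58, 3.67 and 14.8 CPM and fell by 2.61 ± 0.70 (edgeR adjusted p = 0.00649). Its replicate 4 exceeded replicate 1 of the scrambled pulldown. Hist1h1d had 6.08, 9.28, 7.81 and 30.2 CPM with miR-29b and 26.3, 59.5, 56.6 and 49.7 CPM with the scrambled mimic, a fall of 1.85 ± 0.52 (edgeR adjusted p = 0.00896). Replicate 4 with miR-29b again overlapped replicate 1 of the scrambled pulldown. Hist1h2br, at most 0.966 CPM in any library, fell by 2.35 ± 0.66 (edgeR adjusted p = 0.00864). The other 8 that fell were Hist1h1e, Hist1h2bb, Hist1h2be, Hist1h2bm, Hist1h2bp, Hist1h4j, Hist2h2ab and Hist2h3c2.

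The count depended on replicate 4 of the miR-29b pulldown. Without that library 44 of 61 histone mRNAs fell, where 21.7% of all genes did, and the median was −2.56. With replicates 1 to 3 alone 46 of 55 fell and 1 rose, where 29.5% of all genes fell and 29.5% rose, and the median was −2.42. The 1 that rose was Hist1h1c, by 0.86 in log2 (edgeR adjusted p = 0.00241), from 97.9, 184, 147 CPM with miR-29b against 65.0, 89.4 and 82.4 CPM with the scrambled mimic. In replicate 4 the order of Hist1h1c was the other way, with 31.9 and 76.1 CPM. With replicates 1, 2 and 4, Hist1h2ac and Hist2h3b alone fell (edgeR adjusted p = 0.00241 and 0.0350), where 11.3% of all genes did. In replicate 4 by itself the median of the 61 was −0.32 against −0.14 for all genes, with 12 over 2-fold lower and 3 over 2-fold higher, where 26.5% and 20.5% of all genes were.

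Set against the inputs, the mimic-specific comparison subtracts the scrambled pulldown over input ratio from that with miR-29b. None of 61 histone mRNAs rose and 2 fell, where 17.0% of all genes rose and 9.21% fell (edgeR, adjusted p under 0.05). At an unadjusted p under 0.05 there were 4. DESeq2 called 3 lower and none higher, where 11.5% and 18.5% of all genes were. The median was −1.16 against −0.10 for all genes, and 3 of 61 lay above 0. Hist1h2ac fell by 1.15 ± 0.26 (edgeR adjusted p = 0.00345) and Hist2h3b by 2.80 ± 0.93 (edgeR adjusted p = 0.0368). With the authors' library totals neither passed (edgeR adjusted p = 0.0534 and 0.0626). With the replicate number as a block 28 of 61 fell and none rose, where 15.0% of all genes fell and 20.1% rose.

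Single libraries decided the size of that comparison. With replicates 1 to 3, 26 of 55 fell and 1, Hist1h1c, rose by 0.87 (edgeR adjusted p = 0.0236), where 19.1% of all genes fell and 24.4% rose. Hist2h3c2 fell by 2.22 and Hist1h1d by 1.96 in log2 in that set (edgeR adjusted p = 3.2e-05 and 0.00178). Leaving out miR-29b pulldown replicate 4, 16 of 61 fell, where 11.1% of all genes did, and leaving out scrambled input replicate 4, 6 fell, where 10.04% did. Leaving out miR-29b input replicate 4, the median was −0.04 and 1 fell, where 10.7% of all genes did. A set of 10 libraries left out replicate 3 of every group and replicate 4 of the miR-29b input and of the scrambled pulldown. With it the median turned to 0.84 and none was called, where 9.76% of all genes rose and 1.38% fell. In replicate 4 by itself the median was −0.52 against −0.12 for all genes, with 14 of 61 over 2-fold lower and 23.0% of all genes so.

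**Figure D3:**
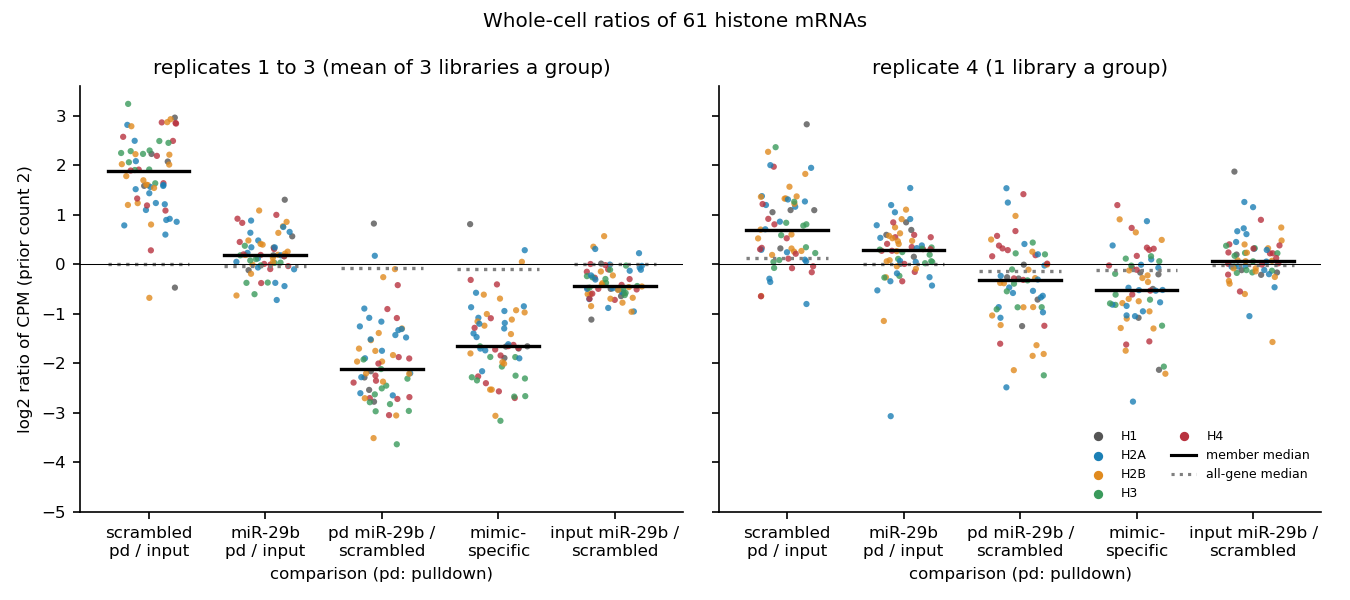
Log2 ratio of each of the 61 histone mRNAs (points, coloured by class) in 5 whole-cell comparisons, from the mean of replicates 1 to 3 (left) and from replicate 4 (right), with the median of these genes (solid line) and of all genes (dotted line). In replicates 1 to 3 the median is 1.89 for the scrambled pulldown over its input and −2.12 between the pulldowns, and in replicate 4 it is 0.70 and −0.32.

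The inputs did not separate the mimics. None of 61 histone mRNAs was called in either direction (edgeR and DESeq2), 1 had an unadjusted p under 0.05, and 0.0542% of all genes rose and 0.0% fell. In none did the groups separate, where they did upward in 2.6% and downward in 2.18% of all genes. The median log2 difference was −0.06 with all replicates. In replicates 1 to 3 it was −0.45, with 55 of 61 genes below 0 and none called, and in replicate 4 it was 0.06. Leaving out miR-29b input replicate 4 it was −1.35 and leaving out scrambled input replicate 4 it was 0.72, again with none called.

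Replicate 4 against replicates 1 to 3 of the same group was a larger difference in the inputs than that between the mimics. The median over the 61 genes was 2.47 in the miR-29b input and 1.83 in the scrambled input on the log2 scale, with 52 and 50 genes over 2-fold higher. Of all genes, 15.5% and 7.57% were over 2-fold higher. In the miR-29b pulldown the median was 2.54 and 54 genes were over 2-fold higher, where 9.65% of all genes were. In the scrambled pulldown the median was 0.65 and 14 genes were over 2-fold higher, where 0.751% of all genes were. There is 1 library on 1 side, so no test was made. Hist1h4d shows the size, with 14.1 to 42.1 CPM in the 6 input libraries of replicates 1 to 3 and 252 and 294 CPM in replicate 4. Hist1h2ak had 1.70 to 21.2 CPM against 69.2 and 94.4 CPM. Averaged over the inputs, Hist1h1c lay at −1.70, Hist1h2bc at −1.12 and Hist3h2a at −0.33, and Hist1h2ac at 0.23. How far the lysed and intact preparations took part in this was not tested.

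In the cytoplasmic fraction the order of the pulldowns was the reverse of that in whole cells. Each value is 1 library, so there is no replicate check and no test, and intervals cover counting error only. The summed level was 651 and 666 CPM in the miR-29b and scrambled inputs, 3164 CPM in the pulldown with miR-29b and 768 CPM in that with the scrambled mimic. Of 47 histone mRNAs, 41 lay over 2-fold above input in the miR-29b pulldown and none over 2-fold below, where 13.7% and 9.41% of all genes did. The median log2 ratio was 2.70 against −0.02 for all genes. In the scrambled pulldown 9 lay over 2-fold above input and 3 below, where 10.4% and 10.8% of all genes did, with a median of 0.35. Those 3 were Hist1h2al at −3.09, Hist1h4i at −1.97 and Hist1h2ae at −1.57.

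Between the cytoplasmic pulldowns 38 of 47 were over 2-fold higher with miR-29b and none over 2-fold lower, where 20.3% and 16.9% of all genes were. All 47 had a ratio above 0, and the median log2 ratio was 2.08 against 0.03. H4 mRNAs gave 11 of 12 over 2-fold higher with a median of 2.77, H2A 9 of 11 with 2.94, H2B 10 of 11 with 1.95 and H3 8 of 9 with 1.87. None of 4 H1 mRNAs reached 2-fold, with a median of 0.73. The mimic-specific ratio in this fraction was over 2-fold higher for 38 and over 2-fold lower for none, where 19.3% and 16.5% of all genes were, with a median of 2.25. Between the cytoplasmic inputs none passed 2-fold either way, where 0.268% and 0.277% of all genes did, and the median was 0.00.

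Hist1h4d had 39.6 and 41.4 CPM in the cytoplasmic inputs (miR-29b, then scrambled), 576 CPM in the pulldown with miR-29b and 44.6 CPM in that with the scrambled mimic. That is 4818 counts against 173, a ratio of 12.9 after scaling (95% exact interval 11.1 to 15.1). Hist1h2ak had 18.4 and 17.7 CPM in the inputs, 142 CPM with miR-29b and 13.4 CPM with the scrambled mimic, a ratio of 10.6 (8.04 to 14.3). Hist2h3c2 had 21.3 and 22.7 CPM in the inputs, 179 and 77.4 CPM in the pulldowns, a ratio of 2.32 (2.05 to 2.63). For Hist1h2ak the scrambled pulldown was at 0.757 of its input with an interval that includes 1 (0.553 to 1.02), while for Hist2h3c2 both pulldowns lay above their inputs. The highest ratio between pulldowns was that of Hist1h2al, H2A by its symbol, with 341 counts against 3, a ratio of 52.7 (17.9 to 257). RefSeq names it H2af-ps2, a pseudogene name, at chr13:51200084-51203066 with no promoter entry. Hist2h3b was not listed in the fraction table.

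The 4 genes lowest in replicate 4 against replicates 1 to 3 of the whole-cell inputs were Hist1h1c, Hist1h2bc, Hist3h2a and Hist1h2ac, and their cytoplasmic values follow. Hist1h1c had 161 and 155 CPM in the inputs, 147 CPM in the pulldown with miR-29b and 103 CPM in that with the scrambled mimic, a ratio of 1.43 (1.28 to 1.61). Hist3h2a had 6.45 and 5.08 CPM in the inputs and 7.17 and 6.96 CPM in the pulldowns, a ratio of 1.03 (0.644 to 1.69), which includes 1. Hist1h2ac had 12.7 and 7.99 CPM in the pulldowns, a ratio of 1.59 (1.05 to 2.45), where in whole cells its miR-29b pulldown was the lower one. Hist1h2bc had 98.1 and 106 CPM in the inputs and 162 and 58.5 CPM in the pulldowns, a ratio of 2.77 (2.40 to 3.20). Across the 47 genes, the replicate 4 difference in the whole-cell inputs and the cytoplasmic miR-29b pulldown over input ratio had a Pearson correlation of 0.77 and a Spearman correlation of 0.60. Against the ratio between the cytoplasmic pulldowns, miR-29b over scrambled, they were 0.53 and 0.57. These are descriptions across genes, which are not independent replicates and share sequence, class and level. The ratio between whole-cell pulldowns of replicates 1 to 3 and that between cytoplasmic pulldowns had a Pearson correlation of −0.09, although 45 of 47 genes were lower in the first and higher in the second.

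**Figure D4:**
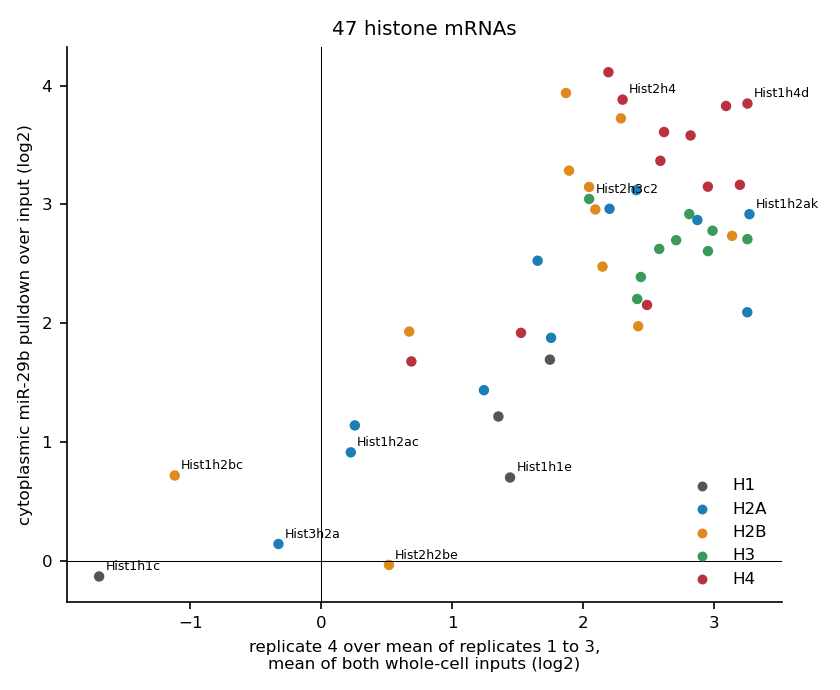
Each point is 1 of 47 histone mRNAs, coloured by class, with the log2 difference of replicate 4 from replicates 1 to 3 averaged over both whole-cell inputs (x axis) and the log2 ratio of the cytoplasmic miR-29b pulldown to its input (y axis). Hist1h1c, Hist1h2bc and Hist3h2a lie at −1.70, −1.12 and −0.33 on the x axis and below 1 on the y axis, and H4 genes such as Hist1h4d lie at the upper right (Pearson 0.77, a description).

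In the nuclear fraction the histone mRNAs were higher in both pulldowns than in their inputs. The summed level was 226 and 242 CPM in the miR-29b and scrambled inputs and 388 and 485 CPM in the pulldowns. Against input, 24 of 47 lay over 2-fold higher with miR-29b and none over 2-fold lower, where 2.35% and 0.96% of all genes did, with a median of 1.01. With the scrambled mimic the figures were 26 and none, where 2.96% and 0.588% of all genes did, with a median of 1.13. Between the nuclear pulldowns 1 was over 2-fold higher with miR-29b, Hist1h2bf, and 4 were over 2-fold lower, Hist1h2ap, Hist1h3a, Hist1h3e and Hist2h2ac, where 1.26% and 1.96% of all genes were. The median was −0.32. Hist1h4d had 11.7 and 10.1 CPM in the nuclear inputs and 37.2 and 37.3 CPM in the pulldowns, a ratio of 0.998 between mimics (0.847 to 1.18). Hist1h1c had 33.5 and 38.8 CPM in the inputs and 46.9 and 57.8 CPM in the pulldowns, a ratio of 0.812 (0.707 to 0.933).

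The mimic-specific ratio in the nucleus was over 2-fold higher for 3 of 47 and over 2-fold lower for 6, where 1.83% and 2.31% of all genes were, with a median of −0.18. Each nuclear library held 3261 to 3563 histone counts, and the cytoplasmic scrambled pulldown held 2980. Between the nuclear inputs 2 were over 2-fold lower with miR-29b, Hist1h2af at −1.27 and Hist1h2ac at −1.11, where 0.398% of all genes were, and none was over 2-fold higher, where 0.346% were.

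**Figure D5:**
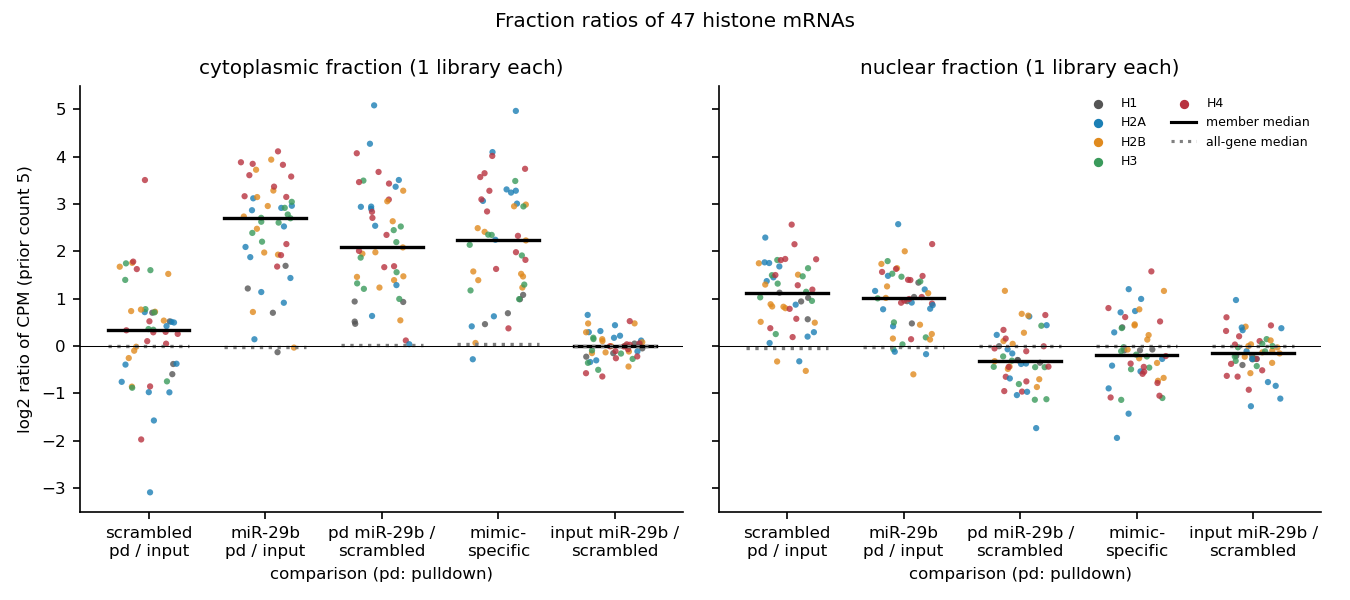
Log2 ratio of each of the 47 histone mRNAs (points, coloured by class) in 5 comparisons within the cytoplasmic (left) and nuclear (right) fraction, 1 library each, with the median of these genes (solid line) and of all genes (dotted line). The median between pulldowns is 2.08 in the cytoplasm and −0.32 in the nucleus.

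Relative to the other RNAs of each fraction, histone mRNAs were lower in the nuclear than in the cytoplasmic inputs. These levels are scaled within a fraction and do not give the share of an mRNA found in each. The nuclear over cytoplasmic ratio was over 2-fold lower for 30 of 47 with miR-29b and for 26 with the scrambled mimic, where 25.9% and 24.0% of all genes were. It was over 2-fold higher for 1 gene with each mimic, where 25.1% and 23.8% of all genes were. The medians were −1.40 and −1.25. The gene that was higher was Hist2h4 (ENSMUSG00000091405), an H4 gene, with 283 and 184 counts in the nuclear inputs and 70 and 98 in the cytoplasmic ones. Its cytoplasmic pulldowns had 72.6 and 66.8 CPM against 4.51 and 5.47 CPM in the inputs, so that it was far above input with both mimics. At the other end Hist1h2af, an H2A gene, had 0 and 9 counts in the nuclear inputs and 86 and 71 in the cytoplasmic ones.

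Other RNAs moved beside these ratios. Small structural RNAs without a poly(A) tail summed to 272 and 332 CPM in the cytoplasmic inputs, 8887 CPM in the pulldown with miR-29b and 2832 CPM in that with the scrambled mimic. In the nuclear fraction they summed to 1270 and 1394 CPM in the inputs and 6684 and 11992 CPM in the pulldowns. Rn7sk, the RNA that holds the elongation factor P-TEFb, made up much of this, with 5597 and 1851 CPM in the cytoplasmic pulldowns. The nuclear RNA Malat1 had 259 and 240 CPM in the cytoplasmic inputs but 5734 and 8728 CPM in the cytoplasmic pulldowns, and 30800 to 49431 CPM in the nuclear libraries. In whole cells the structural RNAs summed to 284 to 428 CPM in input replicates 1 to 3 and 1862 and 1562 CPM in replicate 4, and to 1124 to 2131 CPM in the scrambled pulldown. In the miR-29b pulldown they summed to 223 to 347 CPM in replicates 1 to 3 and 1834 CPM in replicate 4. Listed counts were 48.7% of the authors' total in the cytoplasmic scrambled pulldown and 78.4% to 78.9% in the other cytoplasmic libraries. The part of these values in the histone ratios was not tested.

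Lists of related genes were counted by the same test. Replacement histones, many of which are also made outside S phase from polyadenylated mRNAs, had 5 of 10 lower and none higher in the scrambled pulldown over input. Of all genes 17.4% fell and 18.5% rose there, and the median of the 10 was −0.57. H3f3a, a gene of histone H3.3, had 1363 ± 456 CPM in the pulldown with miR-29b and 101.5 ± 22.7 CPM in that with the scrambled mimic (SD, n = 4) and rose by 3.80 ± 0.37 in the mimic-specific comparison (edgeR adjusted p = 4.39e-06). It was the 1 of 10 that rose there, where 17.0% of all genes did, and none fell, where 9.21% did. In the cytoplasm its log2 ratio between pulldowns was 2.63. Of 20 genes of histone mRNA 3′ end processing and decay, 4 rose and 2 fell in the mimic-specific comparison, near the 17.0% and 9.21% of all genes, with a median of 0.01. Lsm11, a part of the U7 snRNP that cuts histone pre-mRNA, rose by 2.59 ± 0.48, and Zcchc11, a terminal uridylyltransferase, by 2.81 ± 0.59 (edgeR adjusted p = 0.00101 and 0.00237). Zc3h18 fell by 1.31 ± 0.21 (edgeR adjusted p = 0.000332). Slbp itself had 11.3 ± 0.880 and 15.6 ± 2.79 CPM in the inputs (miR-29b, then scrambled, SD, n = 4). In the pulldowns it had 11.6 ± 1.61 and 19.2 ± 4.93 CPM, in the same order. It fell by 0.74 ± 0.19 between whole-cell pulldowns (edgeR adjusted p = 0.00519). Between the cytoplasmic pulldowns, 1 library each, its log2 ratio was 1.57, the other direction. Npat, the S phase activator of histone gene transcription, rose by 1.76 ± 0.20 in the scrambled pulldown over input and by 1.31 ± 0.20 in that with miR-29b (edgeR adjusted p = 1.61e-05 and 5.39e-05).

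Of 24 S phase and DNA replication genes, 2 rose and none fell in the mimic-specific comparison, where 17.0% of all genes rose and 9.21% fell, with a median of −0.27. They were Ccne1, cyclin E1, at 1.66 ± 0.35, and Cdk2, its kinase, at 2.09 ± 0.71 (edgeR adjusted p = 0.00236 and 0.0406). Between pulldowns 6 rose and 11 fell, where 24.5% and 20.9% of all genes did, among them Mcm4, a subunit of the replicative helicase, by 1.34 ± 0.24 (edgeR adjusted p = 0.000258). In the scrambled pulldown over input, 5 rose and 4 fell, near the 18.5% and 17.4% of all genes. Of 12 histone chaperone genes 2 rose and 1 fell in the mimic-specific comparison, near the share of all genes in both directions, with Asf1a, an H3 and H4 chaperone, at 2.41 ± 0.26 and Nasp at 1.77 ± 0.50 (edgeR adjusted p = 9.7e-06 and 0.0165). Of 6 small structural RNAs tested none was called in that comparison, with a median of −1.25, and of the 10 polyadenylated controls 2 rose and none fell, with a median of 0.25, where 17.0% of all genes rose and 9.21% fell. In the scrambled pulldown over input 2 of the 6 structural RNAs rose, Vaultrc5 and Rmrp, where 18.5% of all genes did, with a median of 1.15 over the 6.

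The genes outside the histone family whose log2 CPM over the 16 libraries was most like the mean of the histone genes were Incenp (Pearson correlation 0.979), Anln (0.971), Cit (0.969), Cdca2 (0.967) and Arhgap21 (0.966). These correlations describe 16 libraries that fall into groups, and carry no test. Within the family Hist1h1c (−0.63), Hist1h2bc (−0.41) and Hist3h2a (−0.12) were the genes that correlated negatively with that mean. The head-to-head pair Hist1h2ak and Hist1h2bn, whose shared upstream stretch is printed above, differed in their ratios. Hist1h2ak had a log2 value of −1.04 between whole-cell pulldowns and 3.36 between cytoplasmic ones, and Hist1h2bn had −2.61 and 1.39.

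The authors' deposited table marks its own calls. None of the 61 histone genes was marked as called in the lysed set or in the intact set, where 683 and 979 of 13534 genes were, and none was marked in its column for a target site, where 509 genes were. In the cytoplasmic fraction the authors' deposited table marked 29 of 47 histone genes (61.7%), where 236 of 11568 genes (2.04%) were marked, so that histone genes were 12.3% of all marked genes. In the authors' deposited table the median of their score was 5.15 in the cytoplasm and 0.462 in the nucleus for these 47 genes, and the lowest marked gene had 4.02 and the highest unmarked 4.00. The highest were Hist1h2al at 36.4, Hist1h4k at 25.3, Hist1h2ao at 23.8 and Hist1h4d at 16.4 in the authors' deposited table. The authors' deposited table marked 10 of 12 H4, 8 of 11 H2A, 6 of 11 H2B and 5 of 9 H3 genes and none of 4 H1 genes.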

How the data were processed

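Whole-cell and fraction RNA of NIH3T3 cells was sequenced by the authors, with alignment by STAR 2.3.0 to mm10 per the submitters' processing notes. The deposited tables hold raw read counts per gene and, beside them, the authors' CPM values (counts scaled to library size) on library totals larger than the listed counts. They also hold a deposited score of the authors, named PE in the headers, whose formula is not given in the sources used here. Of 14052 whole-cell lines, 518 repeats were dropped. The deposited nuclear table had the same bytes as the cytoplasmic one and was not used again.

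Counts were tested with edgeR 4.0.16 (filterByExpr, TMM, quasi-likelihood test, 1 model of 4 group means over 16 libraries, two-sided, Benjamini-Hochberg over 12915 genes, threshold 0.05), under R 4.3.3. All 61 histone genes passed the filter. DESeq2 1.42.0, other scalings and filters, subsets of replicates and a replicate block were alternatives. In data simulated for a 4-fold change on 12802 genes, 68.3% of changes were recovered in the mimic-specific comparison and 96.5% between pulldowns. The simulation gave every gene the same dispersion (0.106) and held no outlying library. Its recovery does not carry over to the histone genes, in which replicate 4 stood apart. A histone mRNA that was not called is therefore not shown to be unchanged. Fractions have 1 library each, so log2 ratios used TMM-scaled CPM with a prior count of 5 over genes with at least 20 counts, with no test. Ratio intervals are exact binomial at 95%. Comparisons that use the same libraries are not independent. Intervals cover counting error only.

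The deviations of same-numbered libraries correlated at 0.506 to 0.717 between inputs and at 0.379 to 0.70 between miR-29b pulldown and input, but at −0.0687 to 0.365 between pulldowns and −0.0544 to 0.314 between scrambled pulldown and input. The labels do not say that a number marks a shared culture.

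Named genes were the most abundant of each class, the 5 with the smallest p past the threshold per direction and comparison, those past it in several comparisons, and the extremes of the nuclear over cytoplasmic ratio. From each related list up to 3 genes with the smallest p were eligible. Hist1h2al, Slbp, Npat and the other genes listed without a test were named after their values were seen. The histone genes and the lists were chosen with earlier results of these data known.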

Additional observations from a re-analysis of the deposited data

Results flagged for a closer look

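Of 72 groups of 4 libraries checked for a single library far from the others, 31 (43.1%) held one by Dixon's test at its 95% critical value, where chance gives about 5%. In 22 of the 31, replicate 4 was the high library. The checks covered the named genes and the summed level in the same 16 libraries, so they are not independent. One odd library can flag many genes at once, and the 5% is only a rough guide.

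In the miR-29b input, replicate 4 was high for the summed histone level (1137 CPM), Hist1h1a (0.859), Hist1h1d (20.03), Hist1h2ak (94.4), Hist1h2bb (9.95), Hist1h2bm (8.52), Hist1h2bn (10.3), Hist1h2bp (0.882), Hist1h4d (294), Hist1h4j (2.87) and Hist2h3c2 (53.3), and low for Hist1h1c (31.7 CPM). In the scrambled input, replicate 4 was high for Hist1h2bn (13.0), Hist1h4d (252) and Hist2h3c2 (41.2) and low for Hist1h1c (35.7 CPM), and replicate 1 was low for Hist1h2ac (2.29 CPM).

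In the miR-29b pulldown, replicate 4 was high for Hist1h1d (30.2), Hist1h2ak (83.0), Hist1h2bb (10.4), Hist1h2be (14.1), Hist1h4d (429), Hist1h4j (3.67), Hist2h3b (11.2) and Hist2h3c2 (54.1 CPM). In the scrambled pulldown it was replicate 1 that stood apart, low for the summed level (569.9 CPM), Hist1h2bb (5.45), Hist1h2be (6.82), Hist1h2bn (9.55), Hist1h2br (0.273) and Hist1h4j (0.273 CPM). That library also had the fewest listed counts, 7409157, which were 48.9% of the authors' total.

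The pulldown over input change differed between the mimics for Hist1h2ac and Hist2h3b, whose differences were −1.15 and −2.80 on the log2 scale (interaction in edgeR, adjusted p = 0.00345 and 0.0368).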

How the results depend on the processing

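No named gene that was called changed direction in the alternatives run, although the median of the mimic-specific comparison turned from −1.16 to 0.84 with 10 libraries. With replicates 1 to 3, 1 rose and 26 fell in the mimic-specific comparison, 1 rose and 46 fell between pulldowns, 4 rose and 1 fell with miR-29b over input, and 47 rose and 1 fell in the scrambled pulldown over input. With the replicate block the counts were 28 lower, 50 lower, 2 lower and 53 higher in that order. Of all genes 15.0%, 28.3%, 28.3% and 23.8% were so called. Pairing could not be established for the pulldowns. With replicates 1, 2 and 4 the counts were 1 lower, 2 lower, 0 higher and 1 higher. Of all genes 1.81%, 11.3%, 21.1% and 8.49% were so called. With 10 libraries they were 0 lower, 1 lower and, for the scrambled pulldown over input, 1 higher. Of all genes 1.38%, 7.32% and 5.43% were so called there. With the authors' library totals 0 fell in the mimic-specific comparison and 7 between pulldowns, where 2.20% and 8.46% of all genes did. Upper-quartile scaling gave 0 higher and 1 lower with miR-29b over input, where 22.6% and 32.6% of all genes were. A minimum of 2 CPM in 4 libraries left 10 higher in the scrambled pulldown over input, where 20.7% of all genes were.

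Leaving out 1 library at a time gave 1 to 16 lower (mimic-specific) and 6 to 44 lower (pulldowns). It gave 0 to 5 higher (miR-29b over input) and 5 to 22 higher (scrambled over input). The inputs and the other directions gave 0 to 0. Of all genes, 5.99% to 11.1%, 17.4% to 22.3%, 25.3% to 30.2% and 13.7% to 21.2% were so called in that order. In the other directions of these comparisons 13.5% to 26.3% of all genes were called. Hist1h2ac stayed called between pulldowns in all 26 alternatives (adjusted p = 3.03e-09 to 0.00744 over the edgeR fits and the DESeq2 fit). In the mimic-specific comparison its adjusted p ranged from 0.000366 to 0.0779 (edgeR and DESeq2). That of Hist2h3b ranged from 7.88e-05 to 0.663 (edgeR and DESeq2), and its call was lost without any of 12 single libraries.

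In the nuclear fraction, a prior count of 1 gave 2 higher and 7 lower between pulldowns and 6 higher in the mimic-specific ratio. A prior count of 20 gave 0 higher and 1 lower in both, and 18 lower for nuclear over cytoplasmic miR-29b input. The authors' totals gave 1 lower between nuclear pulldowns, 2 lower in the nuclear mimic-specific ratio and 0 higher for nuclear over cytoplasmic scrambled input. The share of all genes over 2-fold was not counted in these settings, so these counts have no background beside them. The cause was not tested for any of these counts. Counting limits ratios of the 14 genes under 1 CPM and of libraries with few histone counts, 3261 to 3563 in the nuclear ones and 2980 in the cytoplasmic scrambled pulldown.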
